A study of Mus musculus with 14 samples.

Results

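The collagen genes measured here were taken as all genes whose single annotated symbol is Col, a number, the letter a and a second number. This rule found 42 genes on 82 probe sets, of 18194 genes on 34958 probe sets with 1 symbol. The arrays were Affymetrix mouse genome arrays, on which a probe set is a group of short DNA probes against the RNA of 1 gene. Values were log2 expression values, so that a difference of 1 is a doubling. RNA came from the left ventricle of male C57BL/6 mice, and no age of the mice was given in the sources used here. There were 4 arrays of Hsp22 knockout (KO) hearts 3 days after TAC, 4 of wild-type (WT) hearts 3 days after TAC, 3 of basal KO hearts and 3 of basal WT hearts. TAC is transverse aortic constriction, a surgical narrowing of the aorta that loads the left ventricle with pressure. Hsp22 is a small heat shock protein encoded by Hspb8. The basal mice had no pressure overload, and no group had a sham operation. Nothing in the labels says whether the arrays of a group came from separate mice, so the p-values measure the spread between arrays, which may be technical. Which part of Hspb8 was removed, and in which cells, was not given in the sources used here.

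Collagens are extracellular proteins in which 3 chains wind into a triple helix. Fibrillar collagens (types I, II, III, V, XI, XXIV and XXVII) pack into the tension-bearing fibres between heart muscle cells, and type I and type III make up most of the fibrous collagen of the heart. Type IV collagen forms the sheet-like network of the basement membranes around heart muscle cells and vessels. Type VI collagen forms beaded filaments that link basement membranes to the surrounding fibres. The remaining types include the FACIT collagens, which sit on the surface of fibrils, the short-chain type VIII network, the multiplexins (types XV and XVIII) and transmembrane collagens. In the heart most fibrillar collagen is made by fibroblasts, and pressure overload is a textbook setting of cardiac fibrosis.

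Some facts of the whole series bear on the collagen values. Hspb8 was at or above 10.26 in every WT array and at or below 5.92 in every KO array on 2 of its 3 probe sets, and the remaining one differed less between genotypes (KO minus WT -0.60 after TAC and -1.08 in basal hearts). The 9 ventricular muscle markers had group means of 12.37 to 14.73 on the log2 scale. Names of the array files put the basal arrays in a run far from that of the TAC arrays. Every TAC minus basal value below therefore crosses runs, and surgery and run cannot be told apart. Basal KO 3 carries another day than the other basal arrays. Over the genes tested below, arrays of a group correlated with r of 0.970 to 0.991 in TAC KO and 0.918 to 0.986 in TAC WT. In basal KO r was 0.986 to 0.988, and in basal WT 0.983 to 0.987. The mean r of an array with its own group was lowest in TAC WT 3 (0.946), followed by TAC WT 1 (0.954). It was 0.968 for both TAC WT 2 and TAC WT 4. In bulk tissue, more cells of a type and more RNA per cell cannot be told apart.

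A gene was tested where a probe set lay above 5.75, the median value of all probe sets and arrays, on 3 arrays or more. This kept 27 collagen genes on 44 probe sets, of 12261 genes kept in all, and the brightest kept probe set stood for each gene. The kept collagens were 7 fibrillar, 5 basement membrane, 3 beaded and 12 other genes. The 15 genes not kept were Col2a1, Col11a1, Col11a2 and Col24a1 of the fibrillar type, Col4a3 of the basement membrane, Col6a4 and Col6a5 of the beaded type, and Col8a2, Col9a2, Col10a1, Col13a1, Col17a1, Col19a1, Col23a1 and Col26a1. Their highest value in any array was 6.04, for Col8a2. Col8a2, the partner chain of Col8a1, averaged 4.92 in TAC KO, 4.16 in TAC WT, 4.24 in basal KO and 4.05 in basal WT. A gene passed the test at an adjusted p under 0.05 (limma, adjusted over all 12261 genes).

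**Figure D1:**
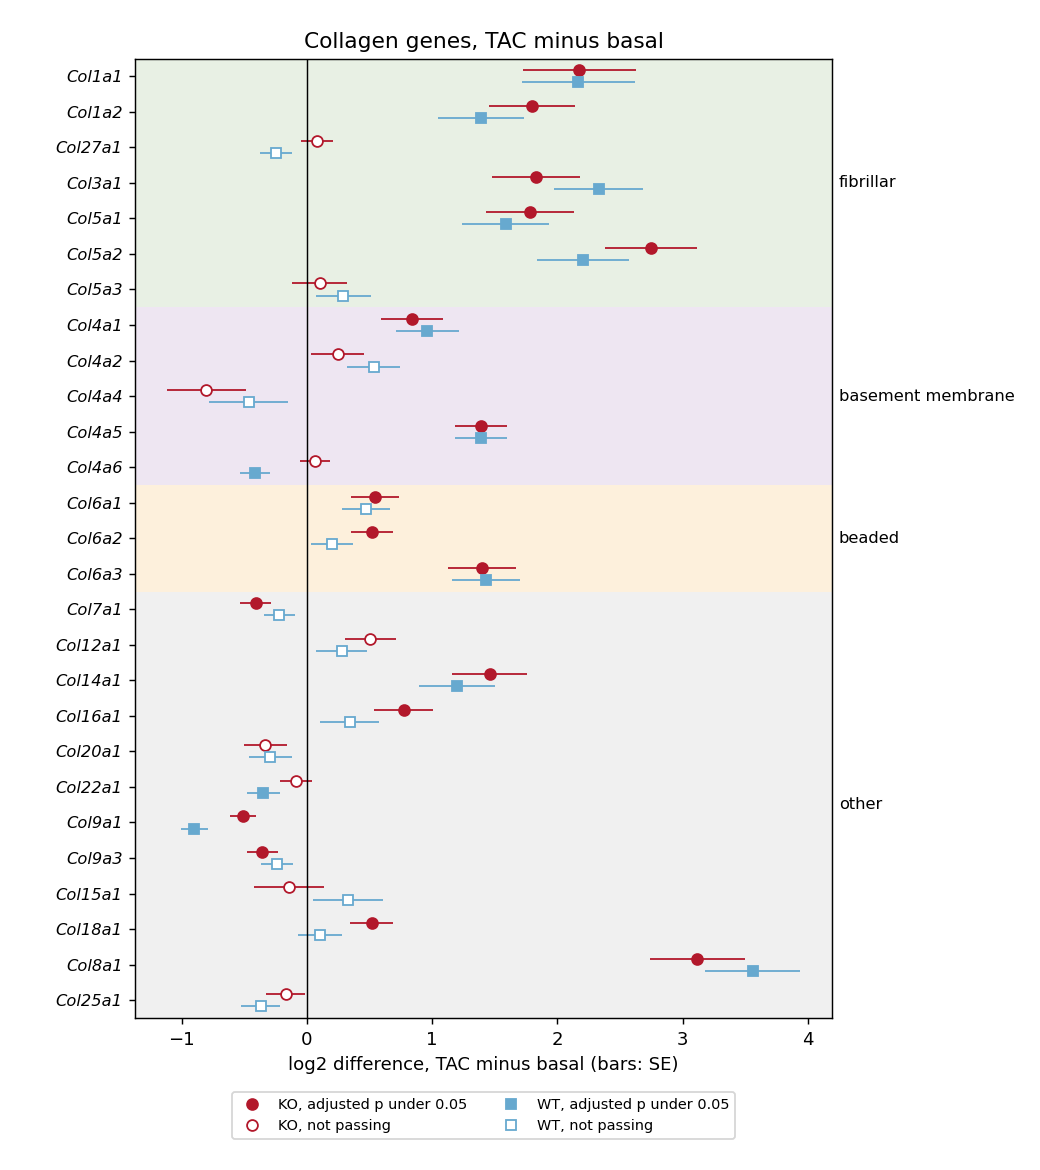
Log2 difference, TAC minus basal, of the 27 kept collagen genes in KO (circles) and WT (squares) with standard errors (x axis), by collagen type (shaded bands); filled symbols pass an adjusted p of 0.05. 5 of the 7 fibrillar genes lie above 1 in both genotypes, and Col8a1 lies farthest to the right.

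After TAC, the main fibrillar collagens, Col8a1, Col6a3, Col4a1, Col4a5 and Col14a1 were higher than in basal hearts of both genotypes. Of the 27 collagens, 14 were higher and 3 lower in TAC KO than in basal KO, and 10 were higher and 3 lower in TAC WT than in basal WT. The lower counts include Col9a3 in KO and Col4a6 in WT, which lay below the filter in every TAC array of that genotype. Over all genes tested, 22.7% were higher and 21.8% lower in KO, and 26.9% were higher and 23.8% lower in WT. The median log2 difference of the 27 collagens was 0.52 in KO and 0.33 in WT, beside -0.02 and 0.02 over all genes. All 10 genes that were higher in WT were among the 14 that were higher in KO. The 4 others were Col6a1, Col6a2, Col16a1 and Col18a1, and none of the 27 collagens passed the test of the difference between genotypes in this change (lowest adjusted p = 0.566).

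Among the fibrillar collagens, 5 of 7 rose in both genotypes and none fell. Their median log2 difference was 1.80 in KO and 1.59 in WT. The 5 were the chains of type I (Col1a1 and Col1a2), type III (Col3a1) and type V (Col5a1 and Col5a2) collagen. Type V collagen is known to lie within type I fibrils and to limit their diameter.

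Col1a1, the more abundant chain of type I collagen, lies on GRCm38.p6 chromosome 11 at 94936224 to 94953042. It measured 12.12, 12.43, 12.30 and 11.88 in the TAC KO arrays, 10.01, 10.91, 12.45 and 11.50 in the TAC WT arrays, 10.04, 10.24 and 9.74 in the basal KO arrays, and 9.27, 8.20 and 9.68 in the basal WT arrays. Every TAC array lay above every basal array of its genotype, but the TAC WT arrays spread over more than 2 log2 units and TAC WT 1 lay within the range of basal KO. The log2 difference was 2.18 ± 0.45 (SE, adjusted p = 0.00262) in KO and 2.17 ± 0.45 (SE, adjusted p = 0.00211) in WT, 4.52-fold and 4.49-fold. Col1a2, the other chain of type I collagen, lies on chromosome 6 at 4505618 to 4541543. It measured 12.92, 13.24, 13.09 and 12.89 in TAC KO, 11.23, 11.80, 13.22 and 12.37 in TAC WT, 11.18, 11.33 and 11.20 in basal KO, and 11.02, 10.30 and 10.97 in basal WT. It followed the order of Col1a1: TAC WT 1 was lowest and TAC WT 3 highest of the TAC WT arrays, and basal WT 2 was lowest of all. Its log2 difference was 1.80 ± 0.34 in KO (adjusted p = 0.00161) and 1.39 ± 0.34 in WT (adjusted p = 0.00518).

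Col3a1, the single chain of type III collagen, measured 13.73, 13.83, 13.68 and 13.44 in TAC KO, 12.34, 13.08, 13.84 and 13.35 in TAC WT, 11.80, 12.10 and 11.62 in basal KO, and 11.09, 9.89 and 11.49 in basal WT. All TAC arrays lay above all basal arrays, and basal WT 2 was again the lowest array. The log2 difference was 1.83 ± 0.35 in KO (adjusted p = 0.00175) and 2.33 ± 0.35 in WT (adjusted p = 0.000338). The gene lies on chromosome 1 at 45311538 to 45349706, 24.6 kb from Col5a2 (45374331 to 45503282), with no protein-coding gene between them. Col5a2 measured 11.68, 12.19, 12.02 and 11.90 in TAC KO, 9.91, 10.65, 12.04 and 11.52 in TAC WT, 9.16, 9.27 and 9.18 in basal KO, and 8.89, 8.50 and 9.09 in basal WT. Of the 7 fibrillar genes it had the largest log2 difference in KO, 2.74 ± 0.37 (adjusted p = 0.000271), and its difference in WT was 2.20 ± 0.37 (adjusted p = 0.000588). Col5a1 measured 10.76, 11.11, 11.14 and 11.12 in TAC KO, 9.25, 9.86, 11.24 and 10.70 in TAC WT, 9.24, 9.26 and 9.25 in basal KO, and 8.54, 8.39 and 9.10 in basal WT. Its basal KO arrays were within 0.02 of each other, and all 3 lay above the basal WT arrays. Its log2 difference was 1.78 ± 0.35 in KO (adjusted p = 0.00193) and 1.59 ± 0.35 in WT (adjusted p = 0.00288). The remaining fibrillar genes did not pass: Col5a3, another chain of type V, differed by 0.10 in KO and 0.29 in WT, and Col27a1 by 0.08 in KO and -0.25 in WT.

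The promoter windows of Col1a2 and Col3a1 are shown because both genes rose in both genotypes and encode the main fibrous collagens. RefSeq windows on GRCm38.p6 run from 250 bases before to 50 bases after the annotated start, were found for 33 of the 42 genes (36 windows), and are printed 5′ to 3′ on the strand of the gene. The Col1a2 window is chr6:4505368-4505667 (plus strand) and the Col3a1 window chr1:45311288-45311587 (plus strand). Capitals mark every match, on either strand, of CCAAT (reverse ATTGG), the core of sites bound by the factor NF-Y, of TATAAA (reverse TTTATA), the TATA box core, and of GGGCGG (reverse CCGCCC), the core of Sp1 sites. No match overlaps another motif.
Col1a2: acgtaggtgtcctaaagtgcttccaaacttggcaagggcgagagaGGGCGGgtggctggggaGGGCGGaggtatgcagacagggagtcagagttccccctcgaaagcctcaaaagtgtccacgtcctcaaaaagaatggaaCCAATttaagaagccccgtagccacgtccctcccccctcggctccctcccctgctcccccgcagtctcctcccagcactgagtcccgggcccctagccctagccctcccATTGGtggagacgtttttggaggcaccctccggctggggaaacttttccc
Col3a1: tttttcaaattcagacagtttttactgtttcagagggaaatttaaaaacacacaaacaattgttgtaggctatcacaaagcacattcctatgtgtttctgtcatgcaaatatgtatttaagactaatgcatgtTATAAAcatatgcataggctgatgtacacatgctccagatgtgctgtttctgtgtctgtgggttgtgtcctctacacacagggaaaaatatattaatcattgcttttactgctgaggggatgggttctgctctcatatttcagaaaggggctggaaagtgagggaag
The Col1a2 window holds 2 matches of CCAAT and 2 of GGGCGG, and the Col3a1 window holds 1 match of TATAAA. Over all 32851 windows, 37.4% hold CCAAT, 13.6% TATAAA and 35.7% GGGCGG. Of the 36 collagen windows, 13 hold CCAAT, 5 TATAAA and 22 GGGCGG. These matches describe the letters of the windows only.

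**Figure D2:**
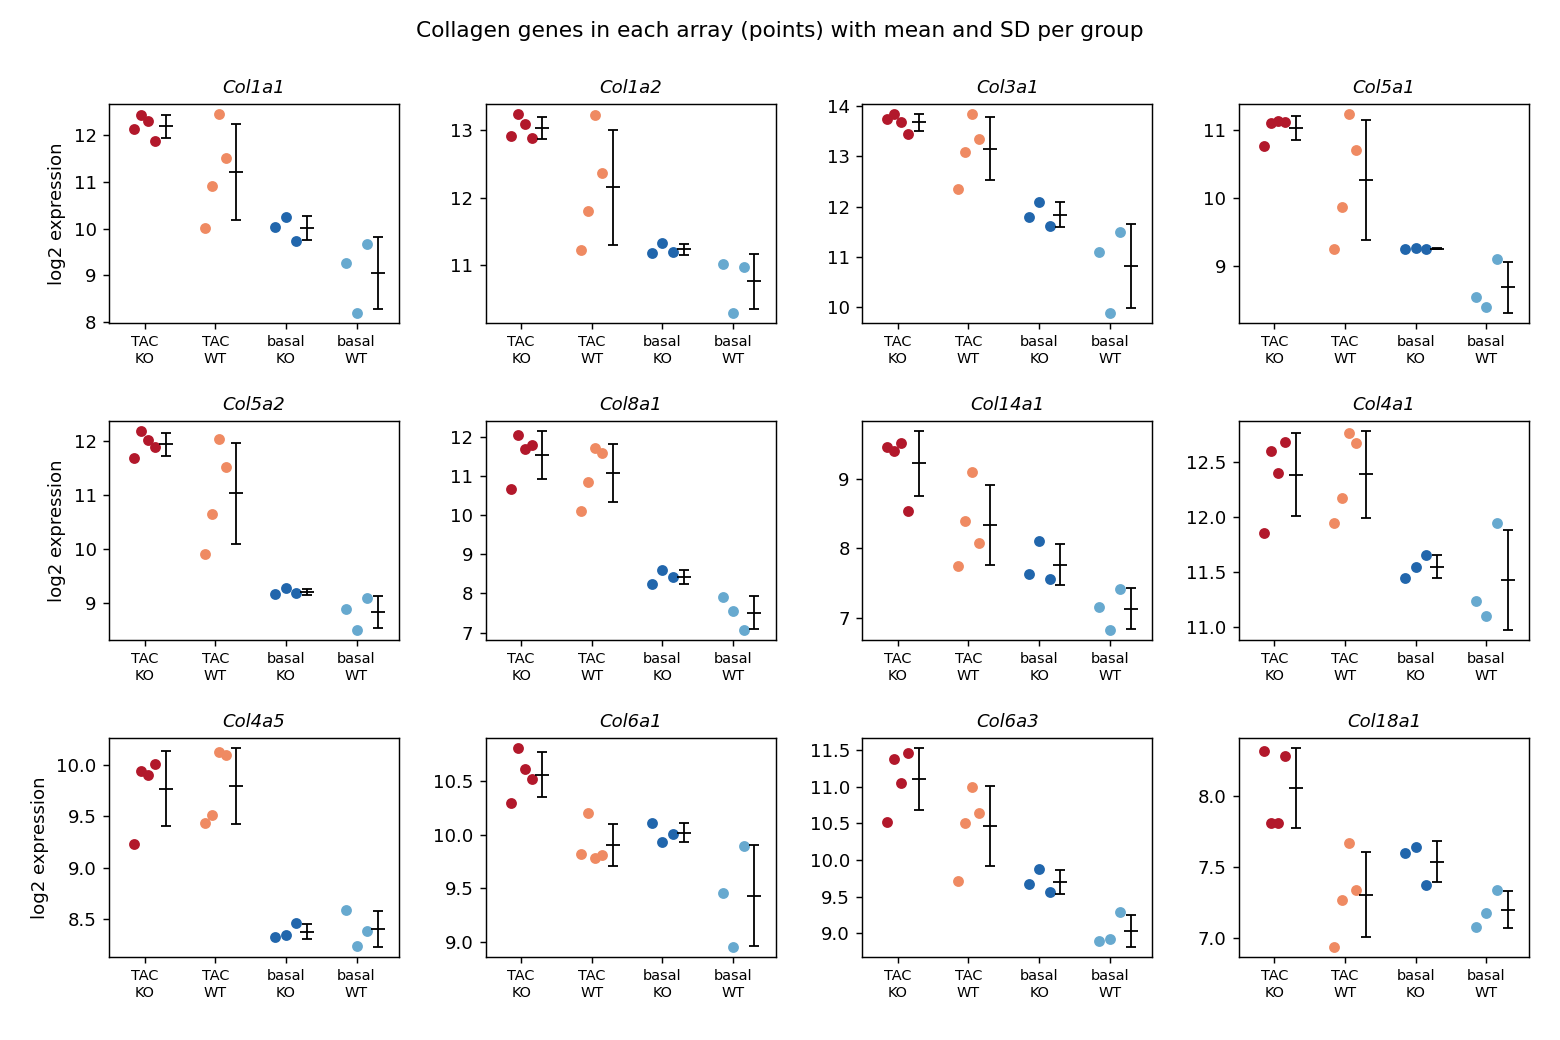
Log2 expression (y axes, scaled per gene) of 12 collagen genes in each array, in the groups TAC KO, TAC WT, basal KO and basal WT from left to right; the bar beside the points is the group mean with its SD. Fibrillar genes are scattered widely among the TAC WT arrays, and Col6a1 and Col18a1 are higher in every KO array than in every WT array of the same condition.

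Col8a1, a chain of the short-chain type VIII collagen that vessel walls and injured tissue are known to make, had the largest change of the 27 collagens in both genotypes. It measured 10.66, 12.04, 11.69 and 11.79 in TAC KO, 10.12, 10.84, 11.72 and 11.60 in TAC WT, 8.24, 8.61 and 8.43 in basal KO, and 7.92, 7.54 and 7.07 in basal WT. The lowest TAC array lay more than 1 log2 unit above the highest basal array. The log2 difference was 3.12 ± 0.38 in KO (8.68-fold, adjusted p = 0.000184) and 3.56 ± 0.38 in WT (11.8-fold, adjusted p = 6.54e-05). Its other 2 kept probe sets gave 2.46 and 2.85 in KO and 2.73 and 2.83 in WT. The gene lies on chromosome 16 at 57624256 to 57754737, and its window (chr16:57754688-57754987, minus strand), shown for this change, holds 4 matches of GGGCGG.
Col8a1: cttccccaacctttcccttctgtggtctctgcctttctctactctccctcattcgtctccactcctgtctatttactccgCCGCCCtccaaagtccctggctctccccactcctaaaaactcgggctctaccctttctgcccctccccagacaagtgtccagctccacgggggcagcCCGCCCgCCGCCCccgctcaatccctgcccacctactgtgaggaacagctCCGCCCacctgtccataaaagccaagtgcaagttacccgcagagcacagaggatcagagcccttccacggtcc

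Of the 5 basement membrane genes, 2 rose in KO and none fell, and in WT 2 rose and 1 fell. Col4a1 and Col4a2, whose chains assemble in the common type IV network, lie head to head on chromosome 8 and share a promoter region. Col4a1 measured 11.85, 12.60, 12.40 and 12.68 in TAC KO, 11.94, 12.17, 12.76 and 12.67 in TAC WT, 11.44, 11.54 and 11.65 in basal KO, and 11.23, 11.10 and 11.94 in basal WT. TAC and basal arrays did not overlap in KO, and TAC WT 1 equalled basal WT 3 at 11.94. Its log2 difference was 0.84 ± 0.25 in KO (adjusted p = 0.0165) and 0.96 ± 0.25 in WT (adjusted p = 0.00694). Without basal KO 1 the KO change missed the threshold (adjusted p = 0.0555). The second kept probe set of Col4a1 gave 0.29 in KO (adjusted p = 0.231) and 0.51 in WT (adjusted p = 0.0386). These 2 values were adjusted over all kept probe sets, and the rise in KO did not pass there. Col4a2 measured 11.64, 12.14, 12.15 and 12.48 in TAC KO, 11.82, 11.76, 12.27 and 12.38 in TAC WT, 11.96, 11.90 and 11.71 in basal KO, and 11.37, 11.28 and 11.92 in basal WT. Its groups overlapped in both genotypes. The log2 difference was 0.25 (95% interval -0.21 to 0.70, adjusted p = 0.358) in KO and 0.53 (0.08 to 0.99, adjusted p = 0.0506) in WT.

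The windows of these genes are shown because they overlap by 78 bases. Col4a1 (window chr8:11312777-11313076, minus strand) has its annotated start at 11312826, and Col4a2 (window chr8:11312555-11312854, plus strand) has its start at 11312805.
Col4a1: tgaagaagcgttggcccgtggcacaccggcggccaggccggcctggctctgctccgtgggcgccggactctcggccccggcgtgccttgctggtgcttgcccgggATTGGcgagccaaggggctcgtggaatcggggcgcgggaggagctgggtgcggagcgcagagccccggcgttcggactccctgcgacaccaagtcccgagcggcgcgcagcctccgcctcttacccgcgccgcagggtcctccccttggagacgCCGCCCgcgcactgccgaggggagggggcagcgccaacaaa
Col4a2: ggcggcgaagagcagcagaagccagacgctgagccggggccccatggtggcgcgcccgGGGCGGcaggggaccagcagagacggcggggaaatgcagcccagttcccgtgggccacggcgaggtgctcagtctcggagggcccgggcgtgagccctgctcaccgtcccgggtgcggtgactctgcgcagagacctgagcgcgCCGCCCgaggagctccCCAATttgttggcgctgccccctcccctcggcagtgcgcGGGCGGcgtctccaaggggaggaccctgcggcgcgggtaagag
The end of the Col4a2 window is the reverse complement of the end of the Col4a1 window over those 78 bases. The Col4a1 window holds 1 match of CCAAT and 1 of GGGCGG, and the Col4a2 window 1 and 3.

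The second head-to-head pair, Col4a5 and Col4a6 on chromosome X, did not move together. Their chains occur together in the type IV network of some basement membranes. Col4a5 measured 9.23, 9.94, 9.90 and 10.01 in TAC KO, 9.44, 9.51, 10.13 and 10.10 in TAC WT, 8.33, 8.35 and 8.46 in basal KO, and 8.59, 8.24 and 8.39 in basal WT. All TAC arrays lay above all basal arrays, and the genotypes overlapped in each condition. The log2 difference was 1.39 ± 0.21 in both genotypes (adjusted p = 0.00047 in KO and 0.000311 in WT). Col4a6 measured 5.75, 5.85, 5.89 and 5.93 in TAC KO, 5.52, 5.40, 5.26 and 5.45 in TAC WT, 6.01, 5.62 and 5.74 in basal KO, and 5.63, 5.85 and 5.99 in basal WT. Its values lay close to the filter of 5.75, and those of TAC WT below it, so that it was kept only through the other groups. It fell by 0.42 in WT (adjusted p = 0.0107) and differed by 0.06 in KO (adjusted p = 0.669). Without basal WT 3 the fall in WT missed the threshold (adjusted p = 0.0554). The annotated starts are 1343 bases apart, so that their windows, shown to set beside the overlapping pair above, do not meet: Col4a5 has chrX:141475169-141475468 (plus strand) and Col4a6 chrX:141474027-141474326 (minus strand).
Col4a5: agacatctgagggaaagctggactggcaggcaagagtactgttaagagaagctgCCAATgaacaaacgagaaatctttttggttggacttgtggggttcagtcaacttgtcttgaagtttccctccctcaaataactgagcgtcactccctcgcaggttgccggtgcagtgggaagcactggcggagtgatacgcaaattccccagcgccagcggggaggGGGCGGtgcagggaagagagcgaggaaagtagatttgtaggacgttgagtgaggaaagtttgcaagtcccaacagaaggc
Col4a6: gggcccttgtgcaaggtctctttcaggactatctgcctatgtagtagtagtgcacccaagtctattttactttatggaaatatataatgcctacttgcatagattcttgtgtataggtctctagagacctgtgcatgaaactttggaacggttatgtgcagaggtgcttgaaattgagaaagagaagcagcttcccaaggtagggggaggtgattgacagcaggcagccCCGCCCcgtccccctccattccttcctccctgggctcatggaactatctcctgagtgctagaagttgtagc
The Col4a5 window holds 1 match of CCAAT and 1 of GGGCGG, and the Col4a6 window 1 of GGGCGG. Col4a4, the fifth kept chain of type IV, differed by -0.80 in KO (adjusted p = 0.0522) and -0.46 in WT (adjusted p = 0.228).

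All 3 kept beaded collagen genes were higher in TAC KO than in basal KO, and 1, Col6a3, was higher in TAC WT than in basal WT. The 3 encode the chains that join in the common form of type VI collagen. Col6a3 measured 10.52, 11.37, 11.05 and 11.46 in TAC KO, 9.71, 10.51, 11.00 and 10.64 in TAC WT, 9.67, 9.88 and 9.56 in basal KO, and 8.90, 8.92 and 9.29 in basal WT. TAC and basal arrays did not overlap within either genotype. Its log2 difference was 1.40 ± 0.27 in KO (adjusted p = 0.0018) and 1.43 ± 0.27 in WT (adjusted p = 0.00123). Col6a1 measured 10.30, 10.81, 10.61 and 10.52 in TAC KO, 9.82, 10.20, 9.78 and 9.81 in TAC WT, 10.11, 9.93 and 10.01 in basal KO, and 9.45, 8.95 and 9.89 in basal WT. Basal KO lay above all but 1 of the TAC WT arrays. Its difference was 0.54 ± 0.19 in KO (adjusted p = 0.0332) and 0.47 ± 0.19 in WT (adjusted p = 0.0519). Col6a2, which lies 85.2 kb from Col6a1 on chromosome 10, measured 10.97, 11.42, 11.36 and 11.50 in TAC KO, 10.44, 10.72, 10.48 and 10.62 in TAC WT, 10.97, 10.79 and 10.62 in basal KO, and 10.26, 10.07 and 10.76 in basal WT. TAC KO 1 equalled basal KO 1, and the WT groups overlapped. Its difference was 0.52 ± 0.17 in KO (adjusted p = 0.0239) and 0.20 ± 0.17 in WT (adjusted p = 0.326). The KO calls of Col6a1 and Col6a2 were lost without basal KO 2, basal KO 3, TAC KO 2, TAC KO 3 or TAC KO 4, and that of Col6a1 also without basal KO 1 (adjusted p up to 0.097 for Col6a1 and 0.0954 for Col6a2 over the alternatives). Both were also lost with the replicate number as a block (adjusted p = 0.0559 and 0.0582), and Col6a1 after quantile normalization (0.0598).

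Besides Col8a1, the other types held both rises and falls. Col14a1, a FACIT collagen on fibril surfaces, rose by 1.46 ± 0.30 in KO (adjusted p = 0.00256) and 1.20 ± 0.30 in WT (adjusted p = 0.00598). Its second kept probe set gave 0.74 in KO and 0.09 in WT. Col16a1, another FACIT collagen, rose in KO (0.77, adjusted p = 0.0179) and differed by 0.34 in WT (adjusted p = 0.233). Leaving out basal KO 2 or basal KO 3 ended that call, with adjusted p up to 0.067. Col18a1, whose protein carries the endostatin fragment, rose in KO (0.52, adjusted p = 0.0289) and differed by 0.10 in WT (adjusted p = 0.628). That call was lost without basal KO 1, basal KO 3, TAC KO 1 or TAC KO 4 (adjusted p up to 0.108 over the alternatives). It was also lost with the mean of the probe sets (adjusted p = 0.0743) and with the replicate number as a block (0.0747). Col15a1, the other multiplexin, did not pass in either genotype (-0.14 in KO and 0.33 in WT).

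The genes that fell were dim, with no array above 6.72. The low end of the whole array was also lower after TAC. The lower quartile of all values was 4.34 to 4.44 in TAC KO and 4.51 to 4.54 in basal KO. In TAC WT it was 4.33 to 4.40, and in basal WT 4.52 to 4.58. The part of this shift in the falls was not tested. Col9a1, a chain of the FACIT type IX known from cartilage, fell in both genotypes. It measured 6.02, 6.21, 6.05 and 6.00 in TAC KO, 5.81, 5.74, 5.54 and 5.64 in TAC WT, 6.41, 6.72 and 6.61 in basal KO, and 6.48, 6.70 and 6.56 in basal WT. No TAC array reached a basal array, and the log2 difference was -0.51 ± 0.11 in KO (adjusted p = 0.00262) and -0.90 ± 0.11 in WT (adjusted p = 9.78e-05). Of 6 markers of valve and cartilage 4 were measured, and 2 of them passed, as lower, in both genotypes: Chad (-1.39 in KO and -1.67 in WT) and Cytl1 (-1.42 in KO and -2.38 in WT). Over all genes tested, 21.8% were lower in KO and 23.8% in WT. Acan differed by -0.33 in KO and -0.23 in WT, and Sox9 by 0.31 in KO and 0.19 in WT, without passing. The 4 summed on the linear scale to 261 to 495 in TAC KO, 194 to 337 in TAC WT, 635 to 706 in basal KO and 657 to 814 in basal WT, and their part in the fall of Col9a1 was not tested. Col7a1, the anchoring fibril collagen, measured 6.01, 6.19, 6.10 and 5.86 in TAC KO and 6.53, 6.61 and 6.20 in basal KO, without overlap, and fell by 0.41 in KO (adjusted p = 0.0185). It measured 5.99, 5.89, 6.04 and 5.86 in TAC WT and 6.37, 6.06 and 6.07 in basal WT (-0.22, adjusted p = 0.148). Its KO call was lost without basal KO 1, basal KO 2 or TAC KO 4 (adjusted p up to 0.0839). Col9a3, another chain of type IX, measured 5.51, 5.43, 5.67 and 5.29 in TAC KO and 5.93, 5.90 and 5.66 in basal KO, which overlapped, and fell by 0.36 in KO (adjusted p = 0.0362). It measured 5.78, 5.57, 5.41 and 5.36 in TAC WT and 5.87, 5.79 and 5.65 in basal WT (-0.24, adjusted p = 0.126). Leaving out basal KO 1, basal KO 2, TAC KO 1, TAC KO 2 or TAC KO 4 ended the Col9a3 call (adjusted p up to 0.12). Array weights (adjusted p = 0.0504) and the replicate number as a block (0.06) ended it too. Col22a1, a FACIT collagen of tissue junctions, measured 5.80, 5.50, 5.46 and 5.73 in TAC WT and 6.02, 5.84 and 6.05 in basal WT, and fell by 0.35 in WT (adjusted p = 0.0385). It measured 5.85, 6.03, 5.99 and 5.63 in TAC KO and 5.81, 6.15 and 5.92 in basal KO (-0.08, adjusted p = 0.607). The WT call was lost without basal WT 1, basal WT 3, TAC WT 2 or TAC WT 3 (adjusted p up to 0.117). It was also lost after quantile normalization (adjusted p = 0.082) and median centring (0.0875). With the replicate number as a block its adjusted p was 0.0918, and with only the WT arrays fitted 0.061. Col12a1, Col20a1 and Col25a1 did not pass in either genotype on their standing probe set.

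**Figure D3:**
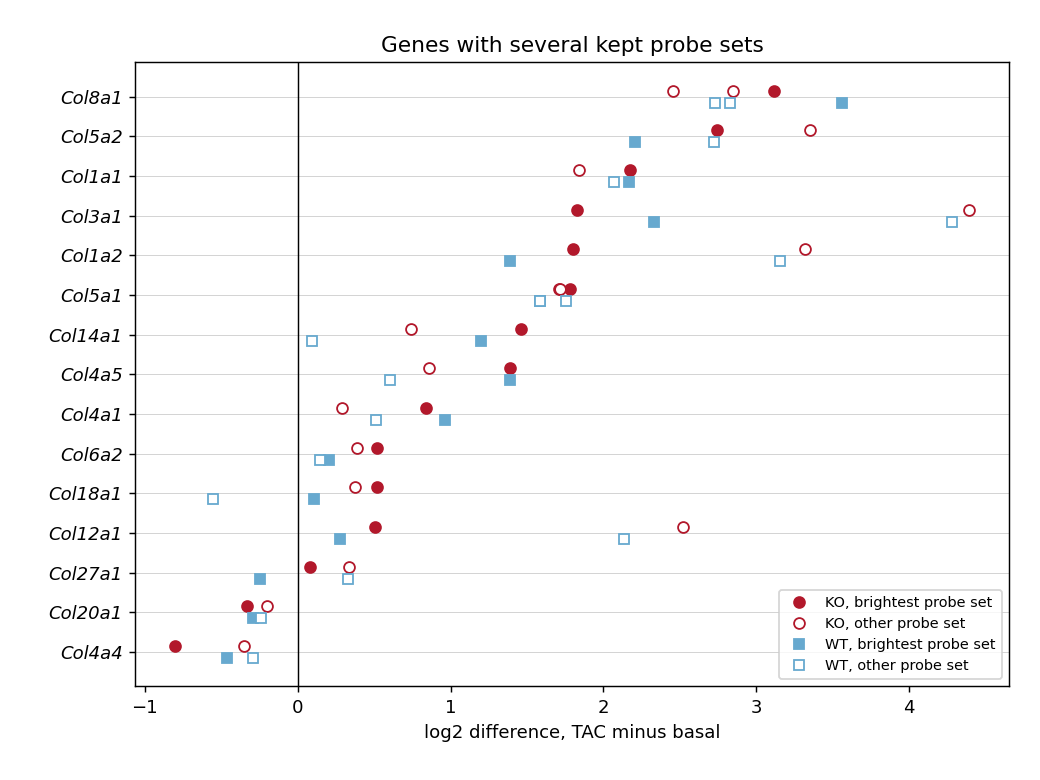
Log2 difference, TAC minus basal (x axis), of each kept probe set of the 15 collagen genes with several, in KO (circles) and WT (squares); filled symbols are the brightest probe set, which stands for the gene. Second probe sets of Col3a1, Col1a2 and Col12a1 lie far to the right of the first.

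For 15 collagens several probe sets were kept, 32 in all, and the size of the change depended on the probe set. All probe sets of a gene had the same sign in 15 of the 15 genes in KO and in 13 in WT, where Col18a1 and Col27a1 were mixed. The second probe set of Col3a1 gave 4.39 in KO and 4.28 in WT, far above the 1.83 and 2.33 of the first. That of Col1a2 gave 3.32 in KO and 3.16 in WT. The 2 of Col12a1, a FACIT collagen of fibril-rich tissue, differed in size. The standing one gave 0.51 in KO (adjusted p = 0.0567) and 0.28 in WT (adjusted p = 0.264). The other gave 2.52 in KO and 2.13 in WT, with means of 7.54 in TAC KO, 6.84 in TAC WT, 5.03 in basal KO and 4.71 in basal WT. Its basal means lay below the filter of 5.75 and it was kept only through the TAC arrays, so no test is given for it.

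Between genotypes no collagen passed the test, but most were higher in KO. After TAC, 0 of 27 collagens passed, beside 0.00816% of all genes, which is 1 gene, Fbln5, an elastic-fibre protein (KO minus WT 0.96, adjusted p = 0.0163). Hspb8 itself is not among the calls because the brightest of its 3 probe sets stands for the gene, and that one differed by -0.60 after TAC (adjusted p = 0.299) and -1.08 in basal hearts (adjusted p = 0.208). In basal hearts 0 of 27 passed, beside 0% of all genes. At an unadjusted p under 0.05 there were 11 collagens after TAC and 5 in basal hearts, of 27, beside 998 and 707 of 12261 genes. KO was above WT in mean for 23 of 27 collagens after TAC, beside 46% of all genes, and for 20 of 27 in basal hearts, beside 53.4%. The median log2 difference was 0.38 after TAC and 0.34 in basal hearts, beside -0.02 and 0.01 over all genes. For the difference of the KO effects, 0 of 27 passed, beside 0% of all genes (2 and 952 at an unadjusted p under 0.05).

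**Figure D4:**
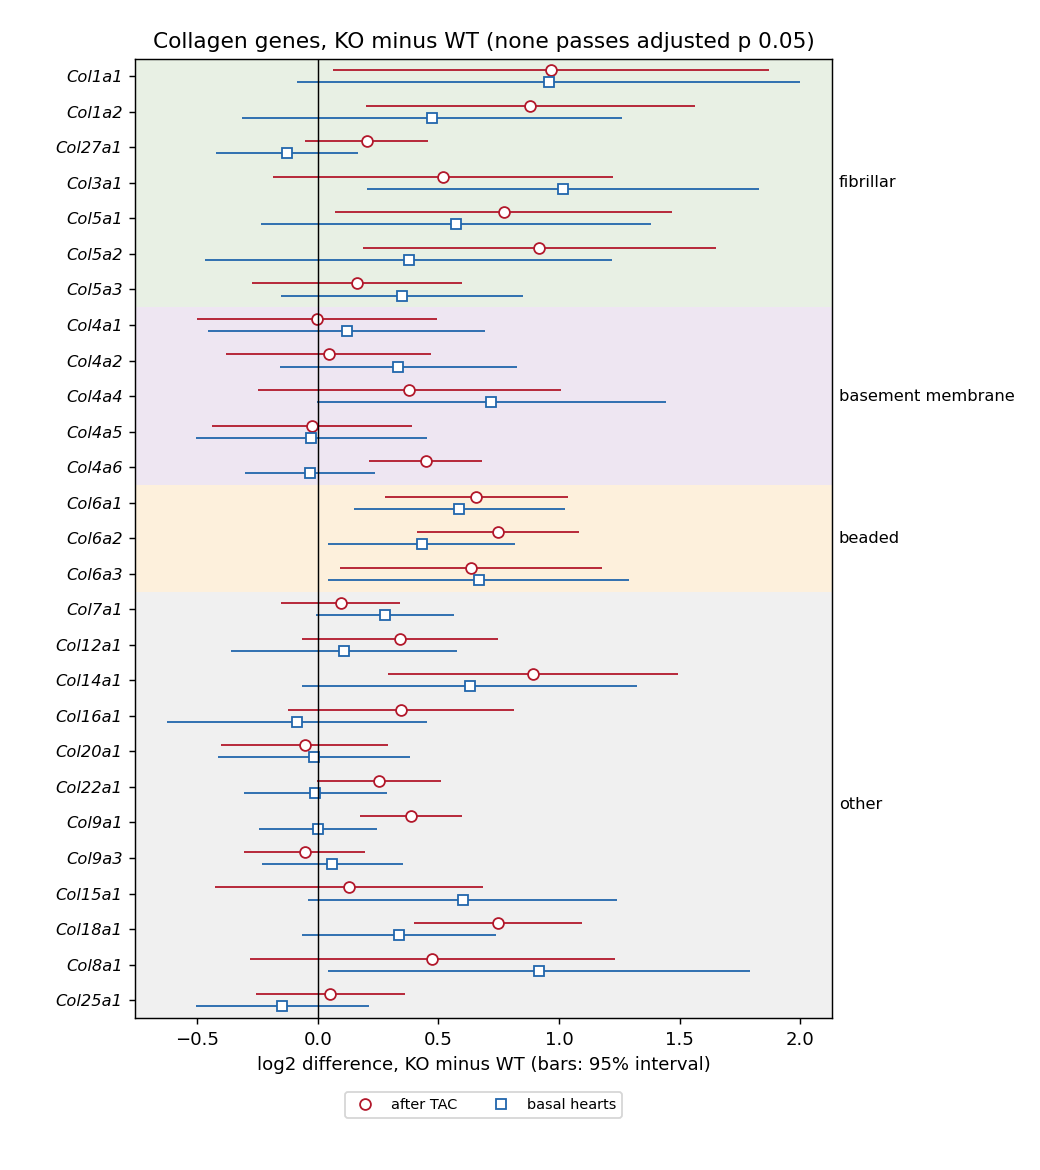
Log2 difference, KO minus WT, of the 27 kept collagen genes after TAC (circles) and in basal hearts (squares) with 95% intervals (x axis), by collagen type (shaded bands). Most points lie right of 0, and none passes an adjusted p of 0.05.

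The fibrillar genes were higher in KO by a median of 0.77 after TAC and 0.47 in basal hearts, with wide intervals. Col1a1 differed by 0.97 after TAC (95% interval 0.06 to 1.87, adjusted p = 0.589) and by 0.96 in basal hearts (-0.09 to 2.00, adjusted p = 0.874). Col3a1 differed by 0.52 after TAC (-0.19 to 1.22) and by 1.02 in basal hearts (0.20 to 1.83). After TAC the 5 fibrillar genes that had risen overlapped between the genotypes through TAC WT 3, and did not overlap without it. In basal hearts each of the 5 was higher in every KO array than in every WT array, with basal WT 2 lowest.

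The beaded genes differed in the same direction in both conditions, by a median of 0.66 after TAC and 0.59 in basal hearts. Col6a2 differed by 0.75 after TAC (0.41 to 1.08, adjusted p = 0.272) and 0.43 in basal hearts (0.04 to 0.82, adjusted p = 0.831). Col6a1 differed by 0.66 (0.28 to 1.04, adjusted p = 0.306) and 0.59 (0.15 to 1.02, adjusted p = 0.774), and Col6a3 by 0.64 (0.09 to 1.18, adjusted p = 0.536) and 0.67 (0.04 to 1.29, adjusted p = 0.854). The 5 basement membrane genes had medians of 0.045 after TAC and 0.12 in basal hearts. Col4a1 differed by 0.00 after TAC (-0.50 to 0.50) and 0.12 in basal hearts (-0.45 to 0.69), and Col4a5 by -0.03 after TAC (-0.44 to 0.39) and -0.03 in basal hearts (-0.50 to 0.45). Col4a2 differed by 0.045 after TAC (-0.38 to 0.47) and 0.33 in basal hearts (-0.16 to 0.82). Col4a4 differed by 0.38 after TAC (adjusted p = 0.789), and by 0.72 in basal hearts (adjusted p = 0.86), where the genotypes did not overlap. Col4a6 differed by 0.45 after TAC (0.21 to 0.68, adjusted p = 0.299), where the genotypes did not overlap, and by -0.03 in basal hearts (-0.30 to 0.24). These intervals do not show that the genotypes are alike.

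Every KO array lay above every WT array after TAC for 5 collagens: Col6a1, Col6a2, Col18a1, Col4a6 and Col9a1. Over all genes this held for 1.69%. In basal hearts it held for 11 collagens: Col1a1, Col1a2, Col3a1, Col5a1, Col5a2, Col6a1, Col6a3, Col8a1, Col14a1, Col18a1 and Col4a4, beside 7.46% of all genes. No collagen lay lower in every KO array in either condition in the main fit. In basal hearts 1 did after quantile normalization, and also when basal WT 1 or basal KO 3 was left out. Of the 5 collagens above WT after TAC, Col4a6 and Col9a1 are dim, with means of 5.41 and 5.68 in TAC WT. Their other probe sets, which were not kept, averaged 5.21 and 4.23 in TAC KO, and 5.145 and 4.175 in TAC WT. Col6a1 and Col18a1 were higher in every KO array than in every WT array in both conditions, beside 0.114% of all genes. Col18a1 measured 8.31, 7.81, 7.81 and 8.28 in TAC KO, 6.94, 7.27, 7.67 and 7.34 in TAC WT, 7.60, 7.64 and 7.37 in basal KO, and 7.08, 7.18 and 7.34 in basal WT. The margin between the genotypes was 0.03 in basal hearts, and its second probe set was 0.82 higher in KO after TAC and differed by -0.11 in basal hearts. After quantile normalization Col18a1 overlapped between the basal groups. Without TAC WT 3, 12 collagens lay above WT in every KO array after TAC, beside 5.87% of all genes, and 3 passed the test as higher in KO (Col14a1, Col18a1 and Col1a2), beside 0.671% of all genes. Without TAC WT 1 instead, 5 collagens lay above WT in every KO array after TAC, beside 3.06% of all genes. In that fit 0 collagens passed, beside 0.0163% of all genes. With arrays weighted by their fit, 16 collagens passed as higher, beside 10.3% of all genes. With the KO effects of both conditions averaged, the lowest adjusted p of a collagen was 0.243.

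**Figure D5:**
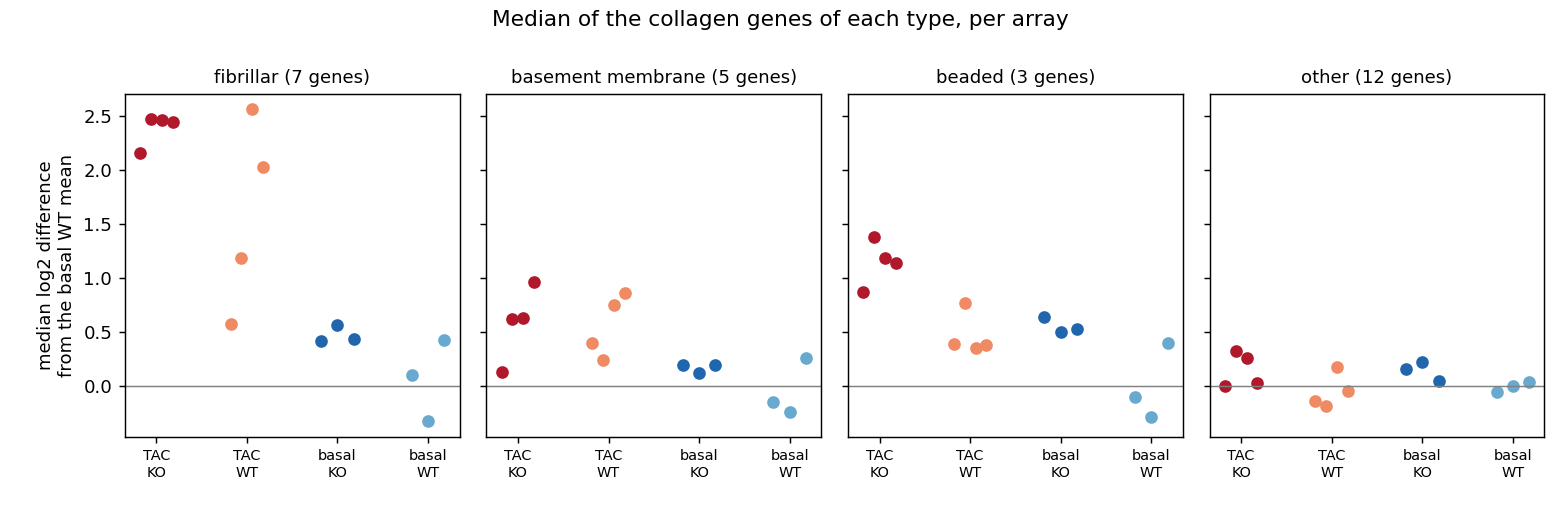
Median log2 difference from the basal WT mean (y axis) over the kept collagen genes of each type, 1 point per array, in the groups TAC KO, TAC WT, basal KO and basal WT from left to right. The fibrillar medians of the TAC WT arrays run from 0.57 to 2.56, and those of TAC KO from 2.16 to 2.48.

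The TAC WT arrays differed among themselves more than the TAC KO arrays did. The median fibrillar log2 difference from the basal WT mean was 2.16, 2.48, 2.46 and 2.44 in the TAC KO arrays, and 0.57, 1.18, 2.56 and 2.02 in the TAC WT arrays. The basal arrays gave 0.42, 0.57 and 0.44 in KO and 0.10, -0.33 and 0.42 in WT. TAC WT 1 thus lay level with a basal KO array, and TAC WT 3 lay above all TAC KO arrays. The SD between arrays was smaller in TAC KO than in TAC WT for 20 of 27 collagens (74.1%), beside 65.1% of all genes, with a median SD of 0.24 in TAC KO and 0.39 in TAC WT (0.17 and 0.21 over all genes). TAC WT 3 did not stand out in the beaded genes, whose median there was 0.35, beside 0.38 to 0.77 in the other TAC WT arrays.

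Col1a1 with Col1a2, Col5a1 with Col5a2, and Col4a1 with Col4a2 rose and fell together across the 8 TAC arrays, with both genotypes pooled. For Col1a1, Col1a2, Col5a1 and Col5a2 the genotypes overlap there only through TAC WT 3. KO minus WT after TAC was 0.97, 0.88, 0.77 and 0.92 for these 4 genes. Their pooled correlations and p-values therefore also hold the difference between genotypes, and do not measure correlation within a genotype. Only chains that share a molecule were paired. Whether chains of different molecules go together as closely was not tested, and the fibrillar medians above also differed widely between the TAC WT arrays. Col1a1 and Col1a2 correlated with Pearson's r = 0.994 (exact permutation test, two-sided, p = 9.92e-05, adjusted over 12 relations 0.00119) and Spearman's rho = 0.976 (p = 0.000397, adjusted 0.00476). Col5a1 and Col5a2 gave r = 0.993 (p = 0.000943, adjusted 0.00556) and rho = 0.857 (p = 0.0107, adjusted 0.0257), both exact permutation tests. Col4a1 and Col4a2 gave r = 0.928 (p = 0.00367, adjusted 0.00881) and rho = 0.881 (p = 0.00724, adjusted 0.0257) by the same exact test. Without the 2 arrays farthest from the median of the first gene, r was 0.976, 0.895 and 0.879 for these pairs in that order. Across the 6 basal arrays Col4a1 and Col4a2 gave r = 0.777 (exact permutation test, p = 0.0833, adjusted 0.0833) and rho = 0.600 (p = 0.242, adjusted 0.242), with r = 0.618 without the 2 farthest. For the other 8 relations at least 1 gene separated KO from WT, so no pooled value is given, and a genotype alone holds too few arrays.

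Genes that make, trim and bind collagen were taken from 3 lists. Their counts stand beside 22.7% higher and 21.8% lower in KO, and 26.9% higher and 23.8% lower in WT, over all genes tested. Of 16 measured enzymes that modify or fold collagen chains, 7 rose and 1 fell in KO, and 5 rose and 1 fell in WT. P4hb, a subunit of prolyl 4-hydroxylase, rose by 0.97 in KO (adjusted p = 0.00342) and 0.71 in WT (adjusted p = 0.0145), and Plod2, a lysyl hydroxylase, by 0.75 in KO (adjusted p = 0.00507) and 0.61 in WT (adjusted p = 0.0117). Plod1, a related hydroxylase, fell by 0.60 in KO (adjusted p = 0.00251) and differed by -0.30 in WT (adjusted p = 0.0539). Serpinh1, the collagen chaperone, differed by 0.09 in KO and 0.16 in WT and did not pass. Of 8 measured genes that trim or crosslink collagen, 4 rose in KO and 6 in WT. Lox, which crosslinks fibrils, averaged 11.27 in TAC KO, 10.14 in TAC WT, 7.27 in basal KO and 6.94 in basal WT, a rise of 4.00 in KO (adjusted p = 0.000355) and 3.20 in WT (adjusted p = 0.000758). Pcolce, which enhances removal of the procollagen end, rose by 1.12 in KO and 1.27 in WT. Of 6 measured receptors, 4 rose in KO and 5 in WT, among them Ddr1 (1.68 in KO and 1.66 in WT) and Itgb1 (1.03 in KO and 0.98 in WT). The fibroblast collagen receptor Ddr2 differed by 0.00 in both. No gene of these 3 lists passed between genotypes. Their medians, KO minus WT, were 0.11, 0.28 and 0.07 after TAC and 0.10, 0.36 and 0.10 in basal hearts, beside -0.02 and 0.01 over all genes.

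Marker lists of the cells that could carry these RNAs went in different directions after TAC. Over all genes tested, 22.7% were higher and 21.8% lower in KO, and 26.9% were higher and 23.8% lower in WT. Several of the counts below lie near these shares. Of 8 markers of activated fibroblasts, 7 rose in KO, and 6 rose and 1 fell in WT. Their summed linear level was 18381 to 26175 in TAC KO, 9106 to 25482 in TAC WT, 6134 to 6829 in basal KO and 4309 to 5604 in basal WT. Of 12 fibroblast markers outside the collagens, 4 rose and 2 fell in KO, and 4 rose and 5 fell in WT. Their sum was 22817 to 30192 in TAC KO, 16250 to 24994 in TAC WT, 26194 to 29818 in basal KO and 24446 to 28254 in basal WT. Of 12 macrophage markers, 9 rose in KO, and 9 rose and 1 fell in WT. They summed to 16153 to 20355 in TAC KO, 9224 to 28935 in TAC WT, 8337 to 9469 in basal KO and 6215 to 8200 in basal WT. All 7 measured cycling markers rose in both genotypes, with sums of 1386 to 2281 in TAC KO, 371 to 4492 in TAC WT, 259 to 306 in basal KO and 241 to 292 in basal WT. Of 10 endothelial markers, 4 fell in KO and 5 in WT, and none rose. They summed to 5050 to 6022 in TAC KO, 5477 to 6912 in TAC WT, 7203 to 7659 in basal KO and 7145 to 7698 in basal WT. Of 6 atrial markers, 2 fell in KO and 3 in WT, and they summed to 17008 to 28274 in TAC KO, 14202 to 26195 in TAC WT, 8032 to 45847 in basal KO and 26711 to 34104 in basal WT. Of 10 markers of smooth muscle and pericytes, 3 rose and 2 fell in KO, and 2 rose and 2 fell in WT. TAC WT 3, the array highest for fibrillar collagens among the TAC WT arrays, had the highest sums of its group for macrophages (28935), activated fibroblasts (25482), cycling cells (4492) and the genes that trim or crosslink collagen (12536). It had the lowest sums for the fibroblast markers outside the collagens (16250) and for ventricular muscle, at 146570 beside up to 186950 in the other TAC WT arrays. No marker passed the test between genotypes. The mean of KO was above WT, after TAC and in basal hearts, for 8 and 8 of the 8 activated fibroblast markers (medians 0.815 and 0.45), 12 and 11 of the 12 other fibroblast markers (0.405 and 0.20) and 12 and 10 of the 12 macrophage markers (0.42 and 0.42). The same held for 7 and 4 of the 7 cycling markers (0.58 and 0.08), 6 and 7 of the 10 smooth muscle and pericyte markers (0.12 and 0.08), 0 and 5 of the 10 endothelial markers (-0.18 and 0.02) and 2 and 0 of the 6 atrial markers (-0.44 and -1.16). No marker is at 0 on this scale. The part of these cell types in the collagen values was not tested.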

How the data were processed

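Left ventricular RNA was extracted with Trizol, labelled with biotin and hybridised to 14 Affymetrix arrays, per the labels' protocols. The authors deposited log2 values per probe set, made with RMA per the submitters' processing notes; its version was not given in the sources used here. Symbols came from the platform annotation and were checked by gene number against RefSeq (GRCm38.p6). Of the probe sets, 34958 had 1 symbol, 932 several and 9211 none. Precision is limited by the number of arrays.

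The 4 groups were fitted in 1 linear model over all 14 arrays (R 4.3.3, limma 3.58.1; 10 residual and 3.43 prior degrees of freedom), with Benjamini-Hochberg adjustment over 12261 genes; adjusted p-values are limma's unless another test is named. The fit was tested on simulated data. SE is the model's standard error. Correlations used exact permutation tests (scipy 1.17.1) and were added after seeing the data. Collagen genes named with every array were the 5 largest rises and falls that passed after TAC in each genotype and chains that share a molecule; Col4a5 and Col18a1 were added after their values were seen. The members, gene lists and tests were chosen with earlier results of these data known. Alternatives were other filters, probe set rules, scalings, eBayes settings, array weights, a replicate block, a fold of at least 1.5 and leaving out each array.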

Additional observations from a re-analysis of the deposited data

Results flagged for a closer look

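In 4 of 56 tested groups of 4 TAC arrays, 1 array lay far from the others, measured by its gap to the nearest array over the range of the group; chance marks about 1 in 20 groups. Col14a1 was 8.53 in TAC KO 4, below 9.40 to 9.51 in the other TAC KO arrays. Col4a5 was 9.23 in TAC KO 1, below 9.90 to 10.01 in the others. Col5a1 was 10.76 in TAC KO 1, below 11.11 to 11.14 in the others. Col6a1 was 10.20 in TAC WT 2, above 9.78 to 9.82 in the other TAC WT arrays.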

How the results depend on the processing

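With no filter 42 collagen genes entered, and 6 fell in KO (median 0.089) and 10 in WT (median -0.147). Over all genes without a filter, 18.9% fell in KO and 26.2% in WT. With the stricter filter of 7.7 none fell in KO (median 1.11) or in WT (median 1.08), because the genes that fell are dim. Col16a1, and Col12a1 on its second probe set (2.52 in KO and 2.13 in WT), were kept there only through TAC arrays. These medians therefore follow in part from the filter. Over all genes under that filter, 23% fell in KO and 19.3% in WT. Counting every probe set, 25 of 44 rose in KO and 21 in WT, beside 23.5% and 28.3% of all probe sets. Both counts include the second probe set of Col12a1, which was kept only through TAC arrays. At a fold of at least 1.5 none fell in KO and 1 in WT, beside 9.87% and 10.6% of all genes. With array weights 16 collagens passed as higher in KO after TAC (10.3% of all genes), and without TAC WT 3 and basal KO 3, an alternative chosen after seeing the data, 2 passed (Col18a1 and Col1a2, beside 0.535% of all genes) and 12 were above WT in every KO array (beside 5.88%); the cause was not tested. Leaving out single arrays, 1 to 4 fell in KO (1 without basal KO 2 or TAC KO 4), beside 15.8% to 24.6% of all genes. In WT 1 to 5 fell (1 without basal WT 3 and 5 without TAC WT 1), beside 18% to 26.5%. Between genotypes 0 to 3 passed after TAC (3 without TAC WT 3, beside 0.671%). After TAC 5 to 12 were above WT in every KO array, beside 2.1% to 5.87% of all genes. In basal hearts this held for 11 to 16, beside 11.1% to 15.7%. The 16 were found without basal WT 3, beside 13.1%. Of the genes that passed after TAC, Col1a1, Col1a2, Col3a1, Col5a1, Col5a2, Col4a5, Col6a3 and Col8a1 passed in both genotypes under each of the 28 alternatives; Col14a1 missed in WT without probe sets that can bind other transcripts (0.09, adjusted p = 0.76). Quantile normalization gave 13 higher and 4 lower in KO, beside 20.2% and 26.5% of all genes, and 10 and 4 in WT, beside 21.1% and 30%. Median centring gave 14 and 3 in KO, beside 23.4% and 20%, and 12 and 2 in WT, beside 31% and 18.2%. The share of higher calls among all changed genes was 51.0% in KO and 53.1% in WT. It was 43.3% and 41.3% after quantile normalization, and 53.9% and 63.0% after centring. Quantile normalization gave 10 collagens above WT in every basal KO array, without Col18a1, beside 6.68% of all genes. It put 1 collagen below WT in every basal KO array.

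With the replicate number as a block, 11 collagens rose and 2 fell in KO, beside 20.6% and 18.6% of all genes. In WT 10 rose and 2 fell, beside 25.2% and 20.9%, and 0 passed between genotypes, beside 0%. Whether the replicate numbers pair the arrays is not settled. Same-numbered TAC KO and TAC WT arrays correlated in their deviations by 0.59, -0.06, -0.07 and 0.49, and basal KO and WT arrays by -0.03, 0.07 and -0.01. TAC KO 1 and TAC KO 4 correlated best with the TAC WT array of their own number, and TAC KO 2 and TAC KO 3 did not.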

Other observations

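Several other collagen genes lie close to each other in the genome. Col9a1, which fell in both genotypes, lies 4.95 kb from Col19a1 on chromosome 1, which did not pass the filter. Col4a4 overlaps Col4a3 at the 5′ end on chromosome 1; Col4a3 reached at most 5.81 in any array and was not kept. Col9a3, which fell in KO, and Col20a1, which did not pass, lie 361 kb apart on chromosome 2 with 9 protein-coding genes between them. Col18a1 lies 326 kb from Col6a1 on chromosome 10 with 2 protein-coding genes between them; these are the 2 collagens above WT in every KO array of both conditions.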
